A study of Bos taurus with 54 samples.

Results

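Antioxidant defence genes encode the proteins that remove reactive oxygen species, rebuild the thiols spent in doing so, or turn these proteins on. The 10 described here were chosen by symbol from the 32637 genes counted in each library: NFE2L2, HMOX1, NQO1, GCLM, GPX1, TXN, TXNRD1, SOD1, SOD2 and CAT. RNA came from whole blood of 15 Holstein male calves after ammonium chloride lysis of red cells, and the labels gave no age. Control blood was taken at 6 AM under thermoneutral conditions and heat stress blood at 6 PM after 12 h of heat. Each RNA was made into libraries with Takara SMART-Seq v4 3′ DE or Lexogen QuantSeq 3′, or with both, which sequence the 3′ ends of transcripts. Since every control was a morning sample and every heat stress sample an evening one, heat and time of day cannot be told apart.

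Each kit had 27 libraries, of which 13 control and 13 heat stress libraries were compared, and 12 animals per kit had both. The library of animal 20 in each kit was labelled as heat stress, but the sampling described for the study implied that it was thermoneutral, so it was left out of all groups. Counts assigned to genes ranged from 5140595 to 20699030 per Takara library (median 11217979) and from 4516761 to 58521751 per Lexogen library (median 9866693). The Lexogen heat stress library of animal 15 was the deepest. The Lexogen heat stress library of animal 18 had a count in 9273 genes, the fewest of all libraries, against up to 16033 genes in the other Lexogen libraries. The labels number the samples in 2 series, of 8 and 7 animals, without saying what the series are. Levels are given as CPM (counts scaled to a common library size of 1e6) after TMM scaling, and groups are compared within a kit, 1 gene at a time. A gene was called when the adjusted p of edgeR's quasi-likelihood test was under 0.05.

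NRF2, the protein made from NFE2L2, is held in the cytoplasm by KEAP1 and broken down until oxidants modify KEAP1, after which it enters the nucleus and, with a small MAF protein, turns on genes such as HMOX1, NQO1, GCLM and TXNRD1. Superoxide dismutases turn superoxide into hydrogen peroxide, which catalase, glutathione peroxidases and peroxiredoxins remove, with NADPH restoring the glutathione and thioredoxin that are used up. In blood, neutrophils are known for making superoxide in large amounts to kill microbes.

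In Takara, 5 of the 9 antioxidant genes that passed the filter on low counts were higher after heat (NFE2L2, GPX1, TXNRD1, SOD2 and HMOX1), where 18.4% of all 12620 genes tested were higher. None of the 9 was lower, where 10.5% of all genes were, and calls in either direction took 28.9% of all genes. The number of antioxidant genes at an unadjusted p under 0.05 was also 5, where 5166 of all 12620 genes were. In Lexogen all 10 were tested and 1, NFE2L2, was higher, where 5.09% of 11108 genes were higher, 0.459% were lower and 5.55% were called in either direction. At an unadjusted p under 0.05 there were 2 in Lexogen, NFE2L2 and GPX1, where 1877 of the 11108 genes were. The median log2 fold change was 0.51 over the 9 genes in Takara against -0.05 over all genes, and 0.40 over the 10 genes in Lexogen against -0.08 over all genes. A further fit made each animal a block and used only the 12 paired animals of a kit. In Takara it called 3 of 9 antioxidant genes, where 25% of all genes were called. In Lexogen it called 0 of 10, where 0.568% of all genes were called. There 3 antioxidant genes had an unadjusted p under 0.05 in edgeR, where 1584 of 11087 genes did. The same libraries without the block gave 3 in Takara, where 2136 genes were higher and 1001 lower of 12651 tested, and 1 in Lexogen, where 407 were higher and 47 lower of 11087.

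**Figure D1:**
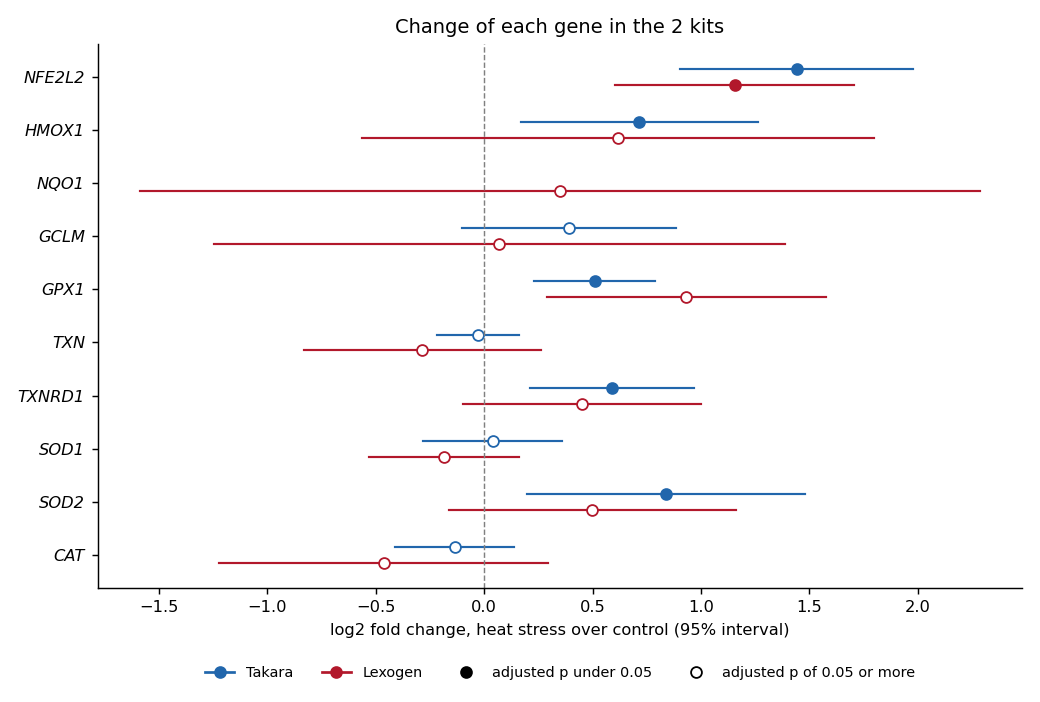
Log2 fold change of each antioxidant gene, heat stress over control, with its 95% interval, in Takara (blue) and Lexogen (red), 13 libraries per group; filled points had an adjusted p under 0.05. NFE2L2 was the gene with filled points in both kits, at 1.44 and 1.15, and NQO1 was not tested in Takara.

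NFE2L2, the regulator, lies on chromosome 2 from 19617016 to 19649649 (assembly ARS-UCD2.0). In Takara it was at 36.3 CPM in the lowest, 71.1 in the median and 99.4 in the highest control library, and at 45.2, 124.1 and 365.8 after heat. Of the 13 heat stress libraries, 10 lay above every control library, and the other 3 fell within the control range. The mean was 65.9 ± 19.7 in control and 179.2 ± 103.8 after heat (SD, n = 13 each), so that the heat stress libraries were spread far more widely. The increase was 2.71-fold (log2 1.44, SE 0.26, 95% interval 0.90 to 1.98; adjusted p = 0.000494, edgeR). It was higher in 11 of 12 animals. The exception was animal 3, which went from 56.1 to 45.2 CPM, while animal 18 had the steepest rise, from 58.5 to 365.8 CPM.

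In Lexogen, NFE2L2 was at 41.3, 78.9 and 205.5 CPM (lowest, median, highest) in control and at 43.8, 160.4 and 486.3 after heat. The groups overlapped more than in Takara: 4 heat stress libraries lay above every control library. The increase was 2.23-fold (log2 1.15, SE 0.27, 95% interval 0.60 to 1.71; adjusted p = 0.00785, edgeR). It was higher in 10 of 12 animals, animals 3 and 14 being lower. Animal 18 again rose most, from 52.8 to 486.3 CPM. With animals as a block the log2 fold change was 1.06 and the adjusted p 0.0697. The same 24 libraries without the block, an alternative chosen after seeing the data, gave an adjusted p of 0.0172. Leaving out 1 animal at a time kept NFE2L2 called, with adjusted p from 0.000188 to 0.00242 in Takara and from 0.00208 to 0.0363 in Lexogen. It was not called with animal 20 as control, at an adjusted p of 0.0554 in Takara and 0.127 in Lexogen (edgeR). In that setting 0 of 12652 genes were called in Takara and 2 of 11222 in Lexogen. Of the 10 animals paired in both kits, 8 were higher in both, 1 was lower in both and 1 differed in direction.

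**Figure D2:**
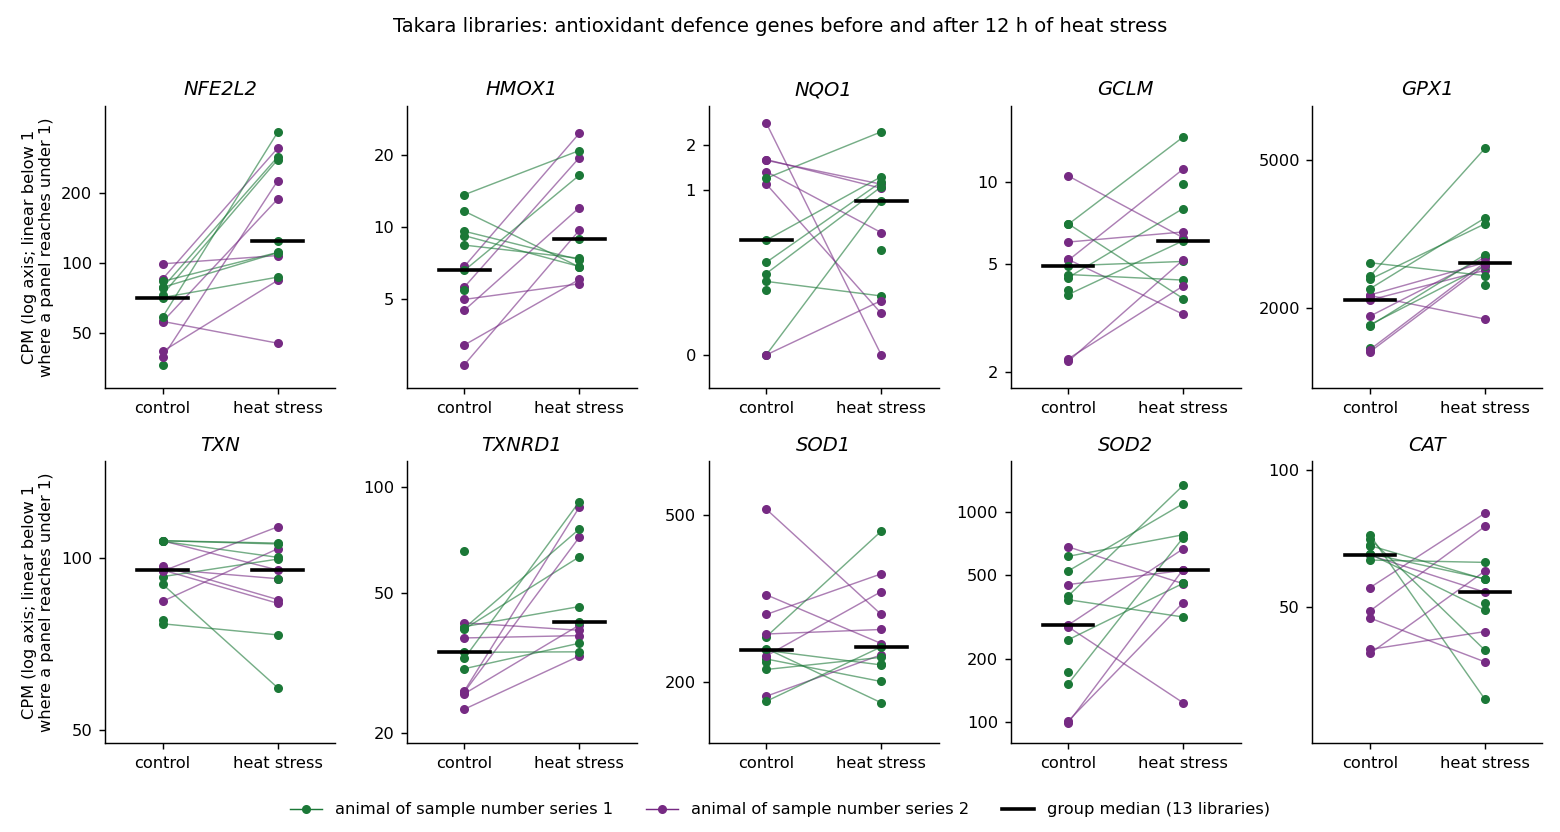
CPM of each antioxidant gene in the Takara libraries, control (6 AM) and heat stress (6 PM), on a log axis (linear below 1 where a panel reaches under 1), with a line joining the libraries of each animal, green for series 1 and purple for series 2 of the sample numbers, and black bars for the group medians. For NFE2L2, 10 of 13 heat stress libraries sit above the highest control library at 99.4 CPM, whereas the TXN groups share a median of 95.1 CPM.

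HMOX1 encodes heme oxygenase 1, which breaks heme down to biliverdin, carbon monoxide and iron, and lies on chromosome 5 from 73623470 to 73630535. In Takara its control libraries were at 2.65, 6.57 and 13.6 CPM (lowest, median, highest) and its heat stress libraries at 5.78, 8.92 and 24.6. There were 4 heat stress libraries above all controls and 6 control libraries below all heat stress libraries, with the rest overlapping. The increase was 1.64-fold (log2 0.72, SE 0.27; adjusted p = 0.0446, edgeR) and was seen in 8 of 12 animals. With animals as a block the adjusted p was 0.0664, and for the same 24 libraries without the block it was 0.0661. It was also above 0.05 without animal 7 (0.129), 14 (0.0620), 16 (0.113), 18 (0.0980), 23 (0.0678), 32 (0.0763) or 36 (0.0608). In Lexogen, control libraries were at 0.669, 4.94 and 19.2 CPM and heat stress libraries at 0.134, 3.93 and 34.4, with broad overlap. The log2 difference there was 0.62 (95% interval -0.56 to 1.80; adjusted p = 0.660), and 7 of 12 animals were higher. Without animal 18, whose heat stress library was the one at 34.4 CPM, it was 0.22. The direction of change in an animal was the same with both kits in 10 of 10 animals, higher in 7 and lower in 3.

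The HMOX1 values were also set out by series of sample numbers. In Takara, 6 of 6 paired animals of series 2 were higher after heat, against 2 of 6 animals of series 1. In Lexogen the counts were 5 of 5 and 2 of 7. Series 2 controls were at 2.65, 4.73 and 6.83 CPM in Takara (lowest, median, highest), and its heat stress libraries were at 5.78, 10.9 and 24.6. Series 1 controls were at 5.44, 9.19 and 13.6 CPM, higher than most of series 2, and its heat stress libraries were at 6.79, 7.39 and 20.9. Within series 2 in Takara, HMOX1 was the 1 antioxidant gene called of 10 tested (log2 1.51; adjusted p = 0.0383), where 7.35% of all genes were called. Within series 2 in Lexogen it was not called (log2 1.07; adjusted p = 0.703), nor was any of 11459 genes by edgeR, with 1275 genes and 2 of the 10 antioxidant genes at an unadjusted p under 0.05. Within series 1 it was not called in Takara (log2 0.18; adjusted p = 0.664) or in Lexogen (log2 0.37; adjusted p = 0.908). The difference between the series, tested directly, was 1.29 on the log2 scale in Takara (unadjusted p = 0.0132, adjusted p = 0.171, edgeR) and 0.67 in Lexogen (unadjusted p = 0.565), neither of which passed.

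NQO1 encodes a quinone reductase and lies on chromosome 18 from 36784718 to 36798053. It was close to the limit of counting: the Takara libraries held 0 to 32 counts (median 8), and 24 of 27 had at least 1. In Takara the control libraries ranged from 0 to 2.83 CPM (median 0.695) and the heat stress libraries from 0 to 2.46 (median 0.932), and the gene did not pass the filter. In Lexogen the ranges were 0 to 6.85 CPM (median 1.89) and 0 to 20.5 (median 0.575), and the log2 difference was 0.35 (95% interval -1.59 to 2.29; adjusted p = 0.909). Its sign rested on animal 18, whose heat stress library was at 20.5 CPM: without it the difference was -0.57, and with animals as a block it was -0.84. Most reads came from the strand opposite to the gene, 73.2% in Takara and 88.9% in Lexogen, so the values above rest mostly on reads of the opposite strand. The reads on the strand of NQO1 summed to 67 in the Takara and 70 in the Lexogen libraries, and the gene did not pass the filter when these alone were counted. Of the other 9 genes, none had more than 0.783% on the opposite strand in Takara or 3.79% in Lexogen.

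GCLM, the modifier subunit of the ligase that makes the first intermediate of glutathione, lies on chromosome 3 from 49581839 to 49599565. In Takara, control libraries were at 2.19, 4.92 and 10.5 CPM (lowest, median, highest) and heat stress libraries at 3.27, 6.07 and 14.6. The groups overlapped almost entirely, with 2 heat stress libraries above all controls. The difference did not pass (log2 0.39, 95% interval -0.10 to 0.88; adjusted p = 0.220), with 8 of 12 animals higher. In Lexogen, control libraries ranged from 0 to 48.8 CPM (median 5.87) and heat stress libraries from 0.134 to 22.2 (median 7.29). The Lexogen log2 difference was 0.07 (95% interval -1.24 to 1.38; adjusted p = 0.979). Without animal 14, whose control library was at 48.8 CPM, it was 0.77, and it was below 0 without animal 3 (-0.02), 16 (-0.07), 18 (-0.05), 19 (-0.02), 23 (-0.15) or 41 (-0.07), so it had no settled direction.

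GPX1, a selenium enzyme that reduces hydrogen peroxide with glutathione, lies on chromosome 22 from 50752554 to 50753722. In Takara, control libraries were at 1529, 2107 and 2654 CPM (lowest, median, highest) and heat stress libraries at 1873, 2655 and 5388. Of the heat stress libraries 7 lay above every control library, and 5 control libraries lay below every heat stress library. The increase was 1.42-fold (log2 0.51, SE 0.14, 95% interval 0.23 to 0.79; adjusted p = 0.00653, edgeR), in 10 of 12 animals. The exceptions were animal 3, at 2167 and then 1873 CPM, and animal 41, at 2654 and then 2451 CPM. The call held without any 1 animal, with adjusted p up to 0.0177, but not with the total count as library size (log2 0.24; adjusted p = 0.153) or with animal 20 as control (adjusted p = 0.0635).

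In Lexogen, GPX1 was at 26.9, 72.4 and 135.5 CPM (lowest, median, highest) in control and at 55.7, 89.0 and 389.7 after heat. There were 4 heat stress libraries above all controls, and the others overlapped with them. The log2 difference of 0.93 was the second largest among the antioxidant genes in Lexogen but did not pass (SE 0.32, 95% interval 0.29 to 1.57; adjusted p = 0.0806), with 8 of 12 animals higher. Without animal 18 it passed, at an adjusted p of 0.0465. The direction in an animal was the same with both kits in 5 of 10 animals, higher in each of the 5.

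TXN encodes thioredoxin, the small protein whose thiols reduce peroxiredoxins and oxidised proteins, and lies on chromosome 8 from 99799186 to 99811602. In Takara its control libraries were at 76.7, 95.1 and 107.0 CPM (lowest, median, highest) and its heat stress libraries at 59.4, 95.1 and 113.1. The groups shared their median, and 1 heat stress library lay above the controls. The log2 difference was -0.03 (95% interval -0.22 to 0.16; adjusted p = 0.847), the narrowest interval of the 9 genes, and 3 of 12 animals were higher. In Lexogen the log2 difference was -0.29 (95% interval -0.83 to 0.26; adjusted p = 0.661), between controls of 39.6 to 212.5 CPM (median 74.0) and heat stress libraries of 21.7 to 200.3 (median 70.4). It was -0.11 without animal 14 and -0.50 without animal 18. TXN overlaps the uncharacterised gene LOC132346006, from 99799979 to 99806887, and reads that fall on both are not assigned when strand is ignored. Counting by strand raised its Takara total from 28440 to 43203 counts and turned the log2 difference from -0.03 to 0.03 (adjusted p = 0.879), and without animal 40 the difference was 0.01.

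TXNRD1 encodes the cytosolic thioredoxin reductase, which reduces thioredoxin with NADPH, and lies on chromosome 5 from 67898938 to 67961974. In Takara, control libraries were at 23.4, 34 and 66.2 CPM (lowest, median, highest) and heat stress libraries at 33.2, 41.4 and 91.2. There were 4 heat stress libraries above all controls, those of animals 7, 18, 36 and 40, and 6 control libraries below all heat stress libraries. The increase was 1.51-fold (log2 0.59, SE 0.18, 95% interval 0.21 to 0.97; adjusted p = 0.0175, edgeR), in 11 of 12 animals. Without animal 7, 18 or 36 the adjusted p was 0.0614, 0.0553 or 0.0566. In Lexogen, control libraries were at 14.3, 26.4 and 53.3 CPM and heat stress libraries at 15.0, 32.9 and 73.6, with 4 of the latter above all controls. The difference there did not pass (log2 0.45, 95% interval -0.10 to 1.00; adjusted p = 0.422), with 9 of 12 animals higher, and 7 of 10 animals were higher with both kits. The gene EID3 lies within TXNRD1, from 67912308 to 67913794, and counting by strand gave the same log2 fold change of 0.59 in Takara.

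SOD1 encodes the cytosolic copper and zinc superoxide dismutase and lies on chromosome 1 from 3824612 to 3833280. In Takara, control libraries were at 179.6, 237.6 and 517.2 CPM (lowest, median, highest) and heat stress libraries at 178.2, 242.4 and 458.0. No heat stress library lay above the controls. The log2 difference was 0.04 (95% interval -0.28 to 0.36; adjusted p = 0.873), and 7 of 12 animals were higher. Without animal 18 the value was -0.05, and it was also just below 0 without animal 32. In Lexogen it was -0.19 (95% interval -0.53 to 0.16; adjusted p = 0.651), with controls of 110.8 to 209.7 CPM and heat stress libraries of 52.3 to 209.6.

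SOD2, the manganese superoxide dismutase of mitochondria, lies on chromosome 9 from 95955349 to 95965385. In Takara, control libraries were at 99.5, 289.8 and 682.1 CPM (lowest, median, highest) and heat stress libraries at 124.0, 526.7 and 1335. There were 4 heat stress libraries above all controls, from animals 12, 15, 18 and 40, while the library of animal 3 was among the lowest of both groups. The increase was 1.79-fold (log2 0.84, SE 0.31, 95% interval 0.20 to 1.48; adjusted p = 0.0445, edgeR), in 9 of 12 animals. With animals as a block the adjusted p was 0.0519, and for the same 24 libraries without the block it was 0.0706. It was also above 0.05 without animal 7 (0.0570), 15 (0.105), 16 (0.0829), 18 (0.101), 19 (0.0630), 23 (0.0712), 32 (0.0539), 36 (0.0846) or 40 (0.0724). In Lexogen, control libraries were at 65.0, 145.2 and 606.3 CPM and heat stress libraries at 44.1, 264.9 and 544.8, so that no heat stress library exceeded the controls. The Lexogen log2 difference was 0.50 (95% interval -0.16 to 1.16; adjusted p = 0.476), although 10 of 12 animals were higher, and it was 0.83 without animal 14 (adjusted p = 0.105). The direction was the same with both kits in 9 of 10 animals.

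CAT encodes catalase, which splits hydrogen peroxide into water and oxygen, and lies on chromosome 15 from 64975290 to 65011234. In Takara, control libraries were at 39.5, 65.0 and 72.0 CPM (lowest, median, highest) and heat stress libraries at 31.3, 53.9 and 80.4. The heat stress libraries reached both lower and higher than the controls. The log2 difference was -0.14 (95% interval -0.41 to 0.14; adjusted p = 0.465), with 4 of 12 animals higher. Leaving out 1 animal at a time gave Takara log2 differences from -0.20 to -0.06. In Lexogen, control libraries were at 29.3, 44.9 and 129.8 CPM and heat stress libraries at 0, 32 and 81.3, the 0 being the library of animal 18. The log2 difference there was -0.46 (95% interval -1.22 to 0.29; adjusted p = 0.589), and -0.25 without animal 14.

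CAT was also set out by series of sample numbers. In Takara the controls of series 1 were at 63.4 to 72.0 CPM and its heat stress libraries at 31.3 to 62.7, with no overlap, and 6 of 6 paired animals were lower after heat. In series 2, 4 of 6 animals were higher. In Lexogen the series 1 groups overlapped, with controls at 29.3 to 60.2 CPM and heat stress libraries at 0 to 81.3, and 3 of 7 animals of series 1 and 2 of 5 of series 2 were higher. Within series 1, CAT and NFE2L2 were the 2 antioxidant genes called of 9 (CAT log2 -0.45, adjusted p = 0.0427), where 20.6% of all genes were called. Within series 2 the CAT value was 0.27 (adjusted p = 0.402). The difference between the series was 0.70 on the log2 scale in Takara (unadjusted p = 0.00788, adjusted p = 0.135, edgeR) and -0.34 in Lexogen (unadjusted p = 0.648), so neither passed.

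NFE2L2 in series 1 was separated completely in both kits. Its Takara controls were at 36.3 to 83.4 CPM and its heat stress libraries at 87.0 to 365.8. Its Lexogen controls were at 41.3 to 148.9 CPM and its heat stress libraries at 149.4 to 486.3, and 7 of 7 paired animals were higher. It was the 1 antioxidant gene called in the Lexogen libraries of series 1 (log2 1.70; adjusted p = 0.00914), where 3.49% of all genes were called. In series 2 the Lexogen value was 0.25 (adjusted p = 0.875), with 3 of 5 animals higher. In Takara the series 2 value was 1.39 (adjusted p = 0.0530), with 5 of 6 animals higher, and the difference between the series was -0.14 (unadjusted p = 0.795). Over all tests of a difference between the series, 0 of 10 antioxidant genes were called in Takara, where 2.27% of 13767 genes were. At an unadjusted p under 0.05 there were 3 in Takara (HMOX1, NQO1 and CAT), where 2236 of the 13767 genes were. NQO1 held 0 to 32 counts per Takara library, mostly reads of the opposite strand. When only reads on the strand of each gene were counted, 9 antioxidant genes were tested. Of these 2 had an unadjusted p under 0.05 (edgeR), where 2050 of 13342 genes did. In Lexogen 0 of 10 were called, where 0.0222% of 13484 genes were. At an unadjusted p under 0.05 (edgeR) there were 2, where 1060 of the 13484 genes were. These 2 were NFE2L2 (log2 difference -1.46, p = 0.00586, adjusted p = 0.378) and SOD2 (-1.57, p = 0.0175, adjusted p = 0.478).

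**Figure D3:**
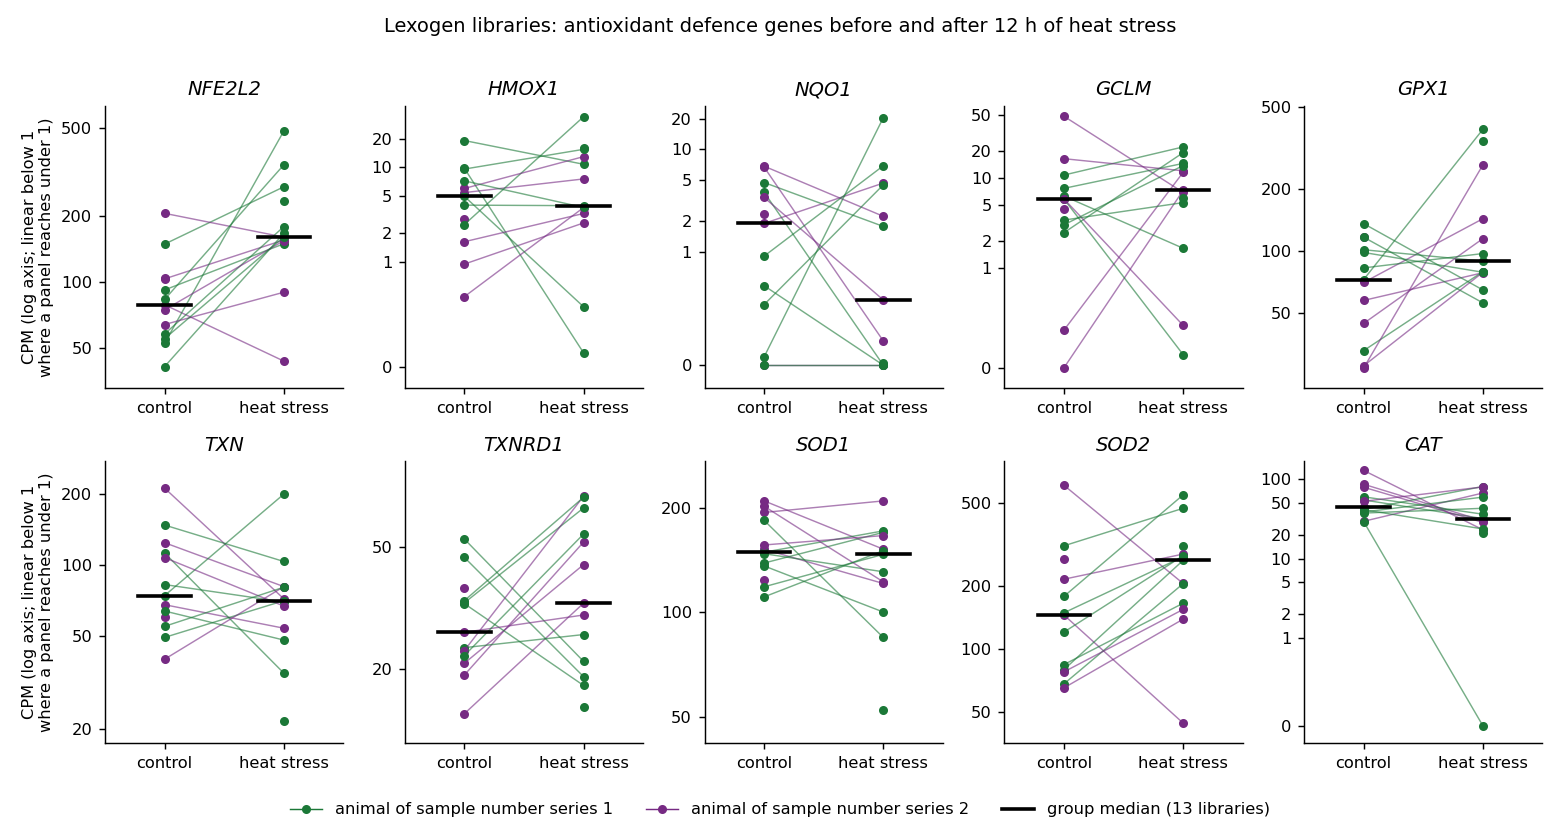
CPM of each antioxidant gene in the Lexogen libraries, control (6 AM) and heat stress (6 PM), on a log axis (linear below 1 where a panel reaches under 1), with a line joining the libraries of each animal, green for series 1 and purple for series 2 of the sample numbers, and black bars for the group medians. NFE2L2 has a median of 78.9 CPM in control and 160.4 after heat, and the CAT value of 0 after heat is the library of animal 18.

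The kits gave different levels for the same RNA. Over 24 RNA samples with both libraries, GPX1 was lower in Lexogen in 24 of 24, with a median log2 ratio of Lexogen over Takara of -4.85. SOD1 and SOD2 were also lower in 24 of 24, with median log2 ratios of -0.81 and -1.02. NFE2L2 was higher in Lexogen in 18 of 24, with a median log2 ratio of 0.42. The change with heat was a separate question, tested as the difference between kits in the change: 0 of 10 antioxidant genes and 0% of 13354 genes were called by edgeR, with 526 genes but none of the 10 at an unadjusted p under 0.05. The lowest unadjusted p of the 10 was 0.113, for GPX1, whose change was 0.51 larger in Lexogen on the log2 scale (95% interval -0.13 to 1.14). For NFE2L2 the interval was -0.46 to 0.29, so that a gap in either direction within these bounds was not excluded.

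The scaling of libraries moved the whole distribution in Takara. With TMM the median log2 fold change of all genes was -0.05 and 2325 genes were higher against 1321 lower. With the total count as library size the median was -0.27 and the split was 1303 higher against 2185 lower. Under the total count 1 of the 9 antioxidant genes, NFE2L2, was called (log2 1.07; adjusted p = 0.000941), where 27.6% of all genes were, and SOD1 turned from 0.04 to -0.19. The adjusted p of GPX1 was then 0.153, of TXNRD1 0.178, of SOD2 0.150 and of HMOX1 0.225. Relative to the median of all genes, NFE2L2 was 1.49 higher with TMM and 1.34 higher with the total count, SOD2 0.89 and 0.78, HMOX1 0.77 and 0.66, TXNRD1 0.65 and 0.53, and GPX1 0.56 and 0.51. SOD1 was 0.09 and 0.08 above the median, and CAT -0.08 and -0.05 from it.

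A list of 80 further genes of oxidant defence, of which 79 had an entry (GSTM1 had none under that symbol), was compared in the same way. In Takara 24 of 72 tested were higher and 5 were lower, where 18.4% and 10.5% of all genes were, with a median log2 fold change of 0.12 against -0.05 over all genes. With the total count as library size, 18 were higher and 9 lower, where all genes split into 1303 higher and 2185 lower. In Lexogen 8 of 69 were higher and none was lower, where 5.09% and 0.459% of all genes were, with a median of -0.04 against -0.08. The 8 called in Lexogen were 8 of the 24 higher in Takara; the kits shared 24 RNA samples. With animals as a block 1 gene was called in Lexogen, TXNIP (adjusted p = 0.0345, edgeR), where 0.568% of all genes were. In Takara 24 were called with the block, where 25% of all genes were. The same paired libraries without the block gave 6 higher in Lexogen, where 407 of 11087 genes were. In Takara they gave 22 higher and 4 lower, where 2136 and 1001 of 12651 genes were. The 5 not called with the block in Takara were GPX3 (adjusted p = 0.0566), GSR (0.0514), MGST3 (0.0549), OSGIN1 (0.0546) and SESN1 (0.0530), of which GSR, MGST3 and SESN1 were named after their values were seen. Fewer than 8 were called in Lexogen also when 1 of some animals was left out, at 7 without animal 12, 6 without animal 18, 5 without animal 15, 16 or 40 and 4 without animal 36. Of all genes 565 were higher with every animal, 542 without animal 12 and 354 without animal 18. Without animals 15, 16, 40 and 36 these were 403, 382, 344 and 332.

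Among genes that control NRF2, 2 of 9 were higher in each kit and none was lower, where 18.4% of all genes were higher in Takara and 5.09% in Lexogen. MAFG, a small MAF partner of NRF2, had medians of 34.6 CPM in control and 86.1 after heat in Takara (log2 1.91, SE 0.33; adjusted p = 0.000372), and rose in Lexogen as well (log2 1.58, SE 0.31; adjusted p = 0.00202). BACH1, a repressor that competes for the same DNA sites, went from 45.8 to 79.7 CPM (log2 1.44, SE 0.29; adjusted p = 0.000988), and by 0.93 in Lexogen (adjusted p = 0.00782). With animals as a block the Lexogen adjusted p was 0.0684 for MAFG and 0.0593 for BACH1. KEAP1, looked up after the results were known, had medians of 65.5 and 65.0 CPM in Takara, and its log2 difference was 0.03 (adjusted p = 0.855). MAFF and MAFK, on the same list and named after their values were seen, were not called in either kit. Their log2 differences in Takara were -0.27 and 0.13 (adjusted p = 0.613 and 0.484, edgeR). In Lexogen they were -0.03 and -0.32 (adjusted p = 0.991 and 0.784, edgeR). Thus 1 partner and 1 competitor of NRF2 were higher, along with NFE2L2 itself, while 2 of 9 in Takara was near the share over all genes.

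In the thioredoxin and peroxiredoxin system 4 of 17 were higher and 2 lower in Takara (median log2 -0.04), near the shares over all genes (18.4% and 10.5%), and 1 of 17 was higher in Lexogen, where 5.09% of all genes were. TXNIP, which binds and inhibits thioredoxin, had medians of 1268 and 3003 CPM in Takara (log2 1.76, SE 0.32; adjusted p = 0.000491) and rose by 1.48 in Lexogen (SE 0.29; adjusted p = 0.00174). PRDX5, a peroxiredoxin, had medians of 382.2 and 1102 CPM (log2 1.68; adjusted p = 0.000612). The methionine sulfoxide reductases MSRB1 (log2 1.83; adjusted p = 0.00759) and MSRA (log2 1.59; adjusted p = 0.000521) were the others that rose. These 3 did not pass in Lexogen, with adjusted p of 0.0948 for PRDX5, 0.0555 for MSRB1 and 0.0738 for MSRA. The 2 lower genes, named after their values were seen, were MSRB2 (log2 -1.11; adjusted p = 0.000309) and PRDX4 (log2 -0.27; adjusted p = 0.0221).

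Of genes that make or use glutathione, 5 of 15 were higher and 2 lower in Takara (median log2 0.05), where 18.4% and 10.5% of all genes were (median -0.05). In Lexogen 0 of 14 were called by edgeR and 1 had an unadjusted p under 0.05, where 1877 of 11108 genes did. GSTK1 had no count in any library. MGST1, a microsomal glutathione transferase, had medians of 42.1 and 68.7 CPM in Takara (log2 1.62, SE 0.37; adjusted p = 0.00224). GPX3, the secreted glutathione peroxidase, rose by 1.15 (adjusted p = 0.0135; 0.0566 with animals as a block), and MGST2 by 0.82 (adjusted p = 0.00445). SLC3A2, a heavy chain of amino acid transporters that include the cystine importer, rose by 0.66 (adjusted p = 0.00267). SLC7A11, its partner in the cystine importer, did not pass the filter in either kit. It had Takara medians of 0.552 and 0.994 CPM and was named after its values were seen. The fifth higher gene was glutathione reductase, GSR (log2 0.60; adjusted p = 0.0174, and 0.0514 with the block), and the lower ones were GSTP1 (log2 -0.59; adjusted p = 0.0168) and MGST3 (log2 -0.37; adjusted p = 0.0284, and 0.0549 with the block), all 3 named after their values were seen.

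For heme and iron, 4 of 10 genes were higher in Takara, where 18.4% of all genes were, and 2 of 9 in Lexogen, where 5.09% were, and none was lower. HMOX2, the constitutive heme oxygenase, had medians of 33.3 and 93.5 CPM in Takara (log2 1.55, SE 0.25; adjusted p = 0.000318), but its adjusted p in Lexogen was 0.117. NCOA4, which delivers ferritin for breakdown, rose by 1.47 in Takara (adjusted p = 0.000596) and 0.87 in Lexogen (adjusted p = 0.0207). FTL, the ferritin light chain, had medians of 1775 and 3714 CPM in Takara (log2 1.28; adjusted p = 0.000679) and rose by 1.20 in Lexogen (adjusted p = 0.0391). SLC40A1, the iron exporter ferroportin, rose by 1.07 in Takara (adjusted p = 0.00570). In Lexogen the adjusted p with the animal block was 0.0995 for NCOA4 and 0.296 for FTL.

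NADPH supply had 5 of 10 genes higher in Takara, where 18.4% of all genes were, and 3 of 10 in Lexogen, where 5.09% were, and none lower. The list medians were 0.41 and 0.16 on the log2 scale, against -0.05 and -0.08 over all genes. TKT, transketolase, had medians of 301.4 and 512.1 CPM in Takara (log2 1.33, SE 0.27; adjusted p = 0.000924) and rose by 1.21 in Lexogen (adjusted p = 0.00764). TALDO1, transaldolase, rose by 1.15 in Takara (adjusted p = 0.00138) and 1.03 in Lexogen (adjusted p = 0.0162). PGD, the phosphogluconate dehydrogenase, rose by 1.08 (adjusted p = 0.00266) and 1.06 (adjusted p = 0.0346). These 3 enzymes belong to the pentose phosphate pathway. Their adjusted p in Lexogen with the animal block was 0.139 for TKT, 0.173 for TALDO1 and 0.279 for PGD.

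Of other genes that handle oxidants, 4 of 11 were higher and 1 lower in Takara (median log2 0.46), where 18.4% and 10.5% of all genes were (median -0.05). In Lexogen 0 of 10 were called by edgeR and 2 had an unadjusted p under 0.05, where 1877 of 11108 genes did. OSGIN1 rose by 1.12 in Takara (adjusted p = 0.0414, and 0.0546 with animals as a block). OXSR1, a stress kinase that was on the list but does not itself remove oxidants, rose by 1.07 (adjusted p = 0.000484). TIGAR, a phosphatase that favours the pentose phosphate pathway, rose by 0.58 (adjusted p = 0.00646). In Lexogen the log2 difference of TIGAR was -0.90 (adjusted p = 0.546). NQO2, a quinone reductase related to NQO1, fell by 0.92 (adjusted p = 0.00130), with medians of 34 and 19.5 CPM.

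**Figure D4:**
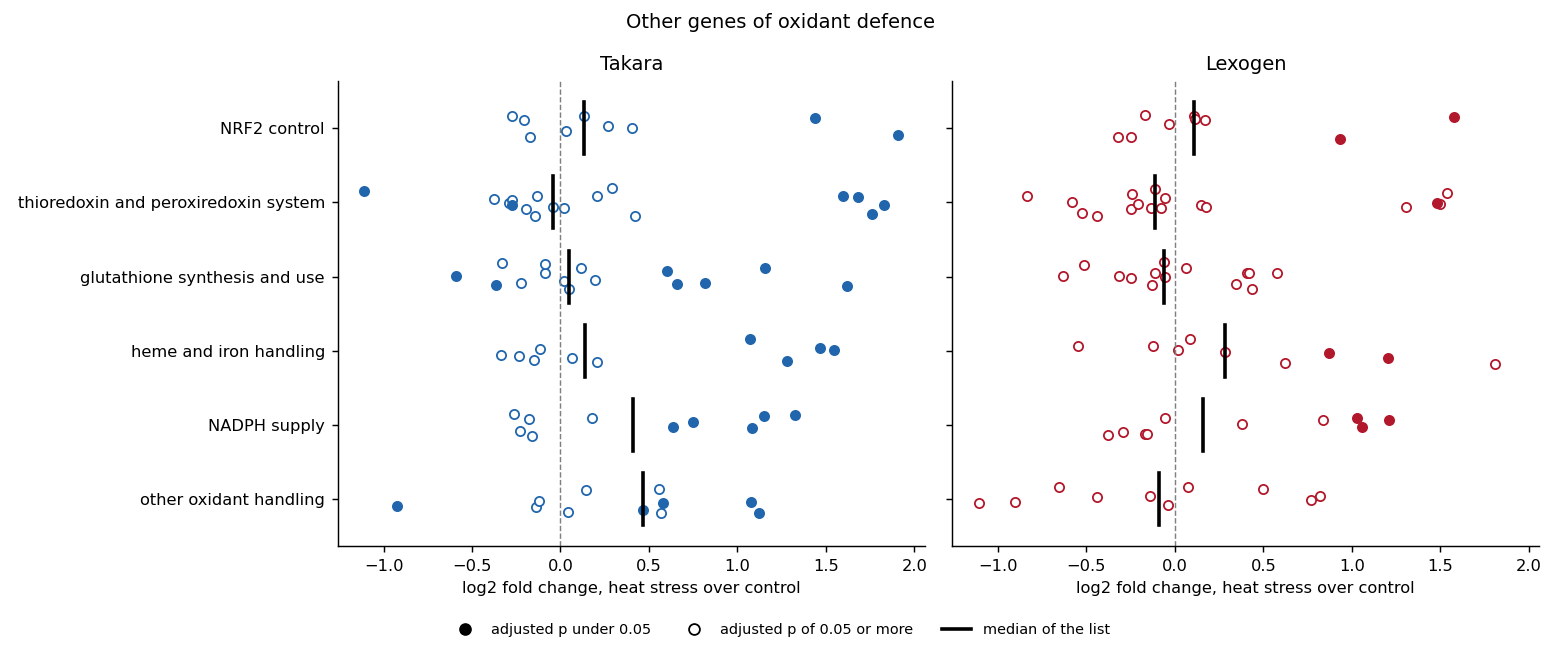
Log2 fold change of the other genes of oxidant defence by list, heat stress over control, in Takara (left, blue) and Lexogen (right, red); each point is a gene, filled where the adjusted p was under 0.05, and black bars are list medians. In Takara 24 of 72 points are filled on the right of 0 and 5 on the left, and in Lexogen 8 of 69 on the right.

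Marker genes of blood cell types were measured in the same samples; beside their counts stand the Takara shares of all genes (18.4% higher, 10.5% lower) and the Lexogen ones (5.09% and 0.459%). Of 12 neutrophil markers, 10 were tested in Takara and 9 were higher, with a median log2 fold change of 2.16, and 7 of 9 were higher in Lexogen, with a median of 2.08; FPR1 had no entry. Their summed level in Takara was 4313, 11691 and 19860 CPM (lowest, median, highest) in control and 3824, 42957 and 110192 after heat. The sum was higher in 10 of 12 animals and lower in animals 3 and 41, and S100A12 was the most abundant gene. S100A12, S100A8 and S100A9 held most of the sum, with Takara means after heat of 30252.5, 8145 and 6848 CPM. CXCR2 and CSF3R came next, at 1441 and 1405 CPM. Apart from S100A12, these were named after their values were seen. In Lexogen the sums were 1188, 3604 and 6978 CPM in control and 1648, 10560 and 33087 after heat, higher in 9 of 12 animals. More cells of a type and more RNA per cell cannot be told apart in whole blood, nor can fewer cells of a type and less RNA per cell.

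Over the 26 Takara libraries, the log2 level of NFE2L2 had a Pearson r of 0.954 with the log2 neutrophil sum (0.860 over the 13 control and 0.945 over the 13 heat stress libraries). That sum was carried mostly by S100A12, S100A8 and S100A9, so each r is mainly with these genes. Over groups pooled and then within control and within heat stress libraries, r was 0.844, 0.938 and 0.829 for SOD2. It was 0.751, 0.342 and 0.765 for TXNRD1, 0.733, 0.742 and 0.524 for GPX1, 0.622, 0.405 and 0.563 for HMOX1, and 0.563, 0.286 and 0.642 for GCLM. It was 0.0835, 0.179 and 0.00261 for SOD1, -0.350, 0.107 and -0.525 for TXN, and -0.559, 0.170 and -0.837 for CAT. The pooled values also hold the difference between the groups, and those within a group differed from them most for TXNRD1, TXN and CAT in control libraries. In Takara, animal 3, whose neutrophil sum went from 8055 to 3824 CPM, was the animal in which NFE2L2 was lower. In animal 41 the sum went from 17851 to 11348 CPM, while NFE2L2 went from 71.1 to 87.0 CPM. NFE2L2 fell in Lexogen in animal 14 (205.5 to 160.3 CPM) while the sum went from 4729 to 10560 CPM. It rose there in animal 23 (58.1 to 178.8 CPM) and animal 41 (55.3 to 160.4 CPM). The Lexogen sums of animals 23 and 41 went from 2809 to 2696 and from 6978 to 4104 CPM. In the other paired Lexogen animals, animal 3 among them, both moved the same way. In Lexogen the pooled, control and heat stress values were 0.697, 0.282 and 0.655 for NFE2L2, 0.636, 0.634 and 0.600 for SOD2, 0.499, 0.621 and 0.220 for GPX1, 0.112, 0.227 and -0.127 for TXNRD1, and -0.627, -0.451 and -0.639 for SOD1. They were 0.445, 0.346 and 0.524 for HMOX1, and -0.514, -0.111 and -0.502 for CAT. For TXN they were -0.166, 0.0196 and -0.0953, for GCLM 0.0941, 0.00214 and 0.0686, and for NQO1 0.0521, -0.270 and 0.294. All values in a library share its depth and scaling, and the part of the neutrophil markers in the changes of the antioxidant genes was not tested.

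**Figure D5:**
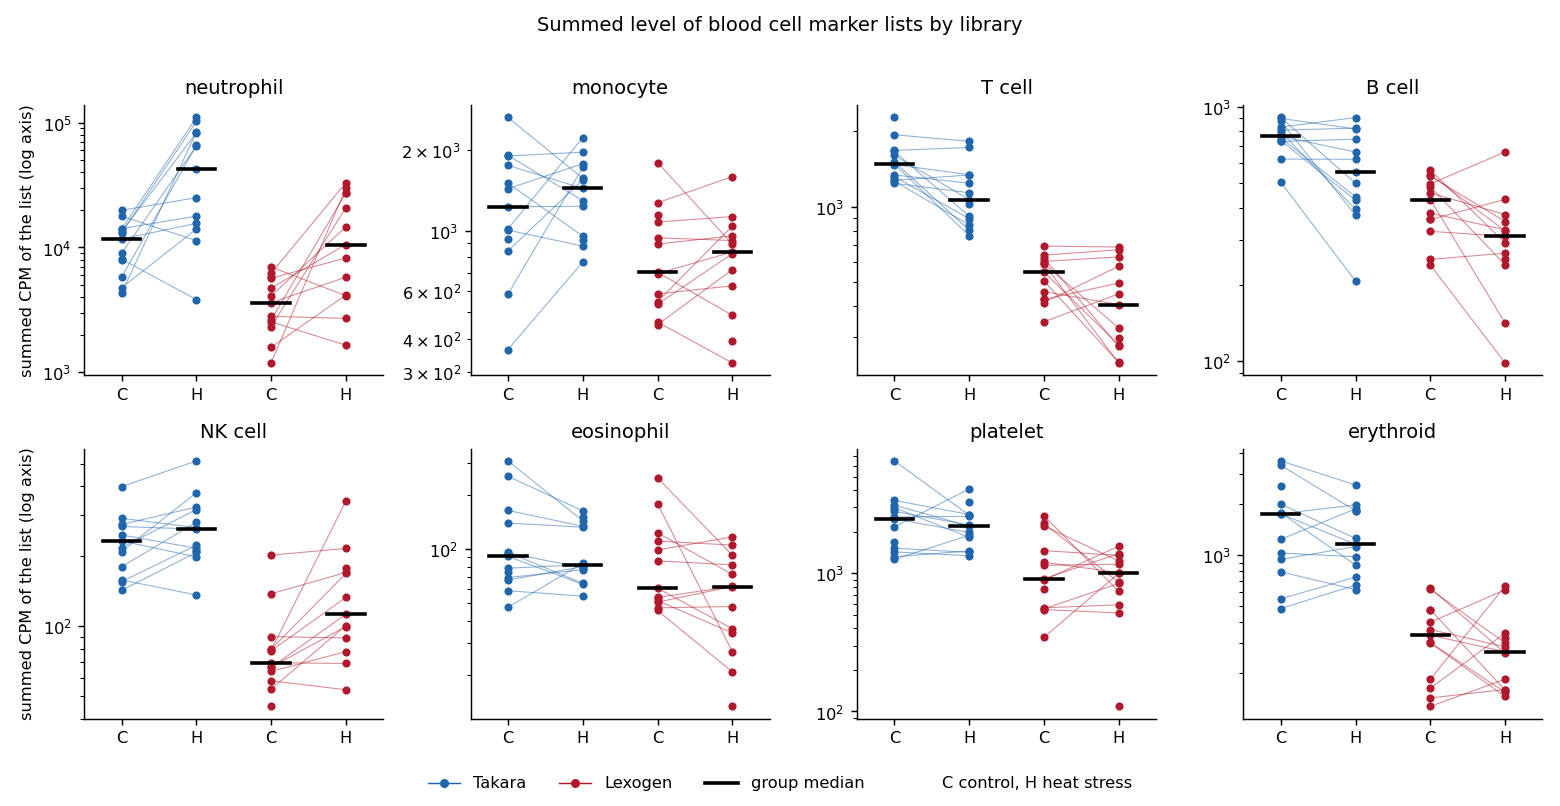
Summed CPM of each list of cell type markers by library, control and heat stress, in Takara (blue) and Lexogen (red), on log axes, with lines joining the libraries of each animal and black bars for group medians. The neutrophil sums run from 4313 to 19860 CPM in the Takara control libraries and from 3824 to 110192 after heat.

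The other lists are read against the same shares of all genes, to which 1 of 7 B cell and 1 of 7 NK cell markers in Takara are near. In Lexogen 1877 of 11108 genes had an unadjusted p under 0.05. Of 8 monocyte markers tested in Takara, 3 were higher (CD163, VCAN and CD68) and 0 of 8 in Lexogen (3 at an unadjusted p under 0.05), and the sum was at 364.5, 1230.0 and 2631 CPM in control and 769.2, 1438 and 2216 after heat, led by LYZ. Of 10 T cell markers 5 were lower in Takara (CD3D, CD3E, CD3G, CD247 and CD8B) and 0 in Lexogen (0 at an unadjusted p under 0.05), and the sum was at 1238, 1477 and 2270 CPM in control and 765.1, 1067 and 1823 after heat, led by CD3D. Of 7 B cell markers 1, BLK, was lower in Takara and 0 in Lexogen (0 at an unadjusted p under 0.05), and the sum, led by MS4A1, was at 504.6, 763.9 and 905.6 CPM in control and 206.6, 554.0 and 904.9 after heat. Of 7 NK cell markers 1, NCR1, was higher in each kit, and the sum, led by NKG7, was at 142.5, 232.3 and 398.0 CPM and then 136.0, 261.1 and 513.3. These genes were named after their values were seen. Of eosinophil markers 2 were tested in Takara and 1 in Lexogen. Their Takara sum, led by CCR3, was at 47.5, 91.1 and 307.7 CPM, then 54.8, 81.9 and 162.8. In each kit 5 platelet markers were tested, and their Takara sum, led by PF4, was at 1261, 2474 and 6491 CPM, then 1338, 2195 and 4068. No eosinophil or platelet marker was called in either kit, with or without adjustment of p. Of 4 erythroid markers 1, EPB42, was higher in Takara and 0 of 2 in Lexogen (1 at an unadjusted p under 0.05), with HBB the most abundant, HBA1 at 0 in all libraries, and sums of 482.1, 1739 and 3569 CPM in control and 623.0, 1152 and 2577 after heat. EPB42 was low in Takara, with medians of 1.20 and 2.09 CPM. The others tested there, HBB, ALAS2 and GATA1, had log2 differences of -0.32, -0.53 and -0.04. They were not called (adjusted p = 0.419, 0.364 and 0.915, edgeR) and were named after their values were seen. EPX and SIGLEC8 had no entry. The part of these cell types in the results was not tested.

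The genes most like an antioxidant gene across the 26 Takara libraries were sought among 10954 genes with a named symbol. For NFE2L2 they were SKAP2 (r = 0.989), NDEL1 (0.984) and RIDA (0.981). SKAP2 rose by 1.65 on the log2 scale, NDEL1 by 1.41 and RIDA by 1.82, close to or above the 1.44 of NFE2L2. The r was taken over control and heat stress libraries together, so genes chosen by it tend to share the group difference. Their rise is therefore not a further result. For TXNRD1 they were KBTBD2 (0.912), PRKAB1 (0.908) and IL16 (0.900), and for GPX1 PLBD2 (0.861), SH3BP2 (0.849) and FAM110A (0.849).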

How the data were processed

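The 54 libraries, 27 per kit, were 3′ mRNA libraries of whole blood. The deposited files held raw counts per gene, which the authors made from trimmed forward reads with STAR 2.7.10b against ARS-UCD2.0, after Trimmomatic 0.39, FastQC 0.11.9 and MultiQC 1.14 (the submitters' processing notes and methods). The column that ignores strand was used. The 4 summary lines of each file, 32.8% to 57.9% of reads in Takara and 32.2% to 46.7% in Lexogen, were kept out of library sizes and tests. Gene positions, 1-based, came from the RefSeq annotation of ARS-UCD2.0.

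Per kit, genes were filtered with filterByExpr, scaled with TMM and tested with the quasi-likelihood F-test of edgeR 4.0.16 (R 4.3.3), heat stress against control, with Benjamini-Hochberg adjustment over all genes tested. SE was the log2 fold change over the square root of F, and intervals were at 95%. A difference between kits or between sample number series was an interaction term. Within-animal ratios used 0.5 CPM as an addition. Displayed correlations used log2 CPM with a prior count of 2. The steps were tested on simulated data.

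The same animals were sampled at both times, which is the source of the pairing. The correlation of deviations from group means within an animal was 0.0401 to 0.394 (median 0.239) in Takara and -0.104 to 0.150 (median 0.0132) in Lexogen, each over 12 animals. No libraries were identical.

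The antioxidant genes and the lists were chosen with earlier results of these data known. Named genes were the 10 antioxidant genes, up to 4 genes of each list with the largest absolute change among those called in Takara and any called in both kits, the 3 genes most correlated with each of the 3 antioxidant genes of lowest p in Takara, and, of each marker list, the most abundant gene and any gene at 0. The values of 1 gene that this named are not reported here. Alternatives were animals as a block, DESeq2 1.42.0, median-of-ratios or total count scaling, all expressed genes, sense counts, each series alone, animal 20 in either group, and each animal left out.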

Additional observations from a re-analysis of the deposited data

Results flagged for a closer look

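The libraries of animal 20 were in no comparison, because their label and the described sampling differed. In Takara this library was above all 13 control libraries for 5 antioxidant genes. NFE2L2 was at 300.6 CPM, where the highest control was 99.4. HMOX1 was at 28.2 CPM (highest control 13.6), and GPX1 at 3206 CPM (highest control 2654). TXNRD1 was at 71.7 CPM (highest control 66.2), and SOD2 at 2025 CPM (highest control 682.1). In Lexogen it was above all 13 control libraries for HMOX1, at 29.8 CPM against up to 19.2, and for GPX1, at 342.2 CPM against up to 135.5. It was below all 13 control libraries there for TXN (24.5 CPM), SOD1 (60.2 CPM) and CAT (17.5 CPM). Its summed neutrophil markers were at 110782 CPM in Takara and 38100 CPM in Lexogen, above the highest heat stress libraries (110192 and 33087). Which of the 2 conditions the animal was in was not tested.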

How the results depend on the processing

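The number of antioxidant genes called in Takara, 5, was the same with DESeq2, median-of-ratios scaling, sense counts and animal 20 as heat stress. It was 3 when all expressed genes were tested, 3 with animals as a block, 3 for the same paired animals without the block (chosen after seeing the data), 2 in series 1, 1 in series 2, 1 with the total count as library size and 0 with animal 20 as control. Leaving out each animal gave 2 to 5: 2 without animal 7, 18 or 36 and 3 without animal 16, 23 or 32. Of all genes in Takara, 2325 were higher with every animal, and 1958, 1850 and 1882 without animals 7, 18 and 36. Without animals 16, 23 and 32 these were 2028, 2138 and 2324. In Lexogen the number of antioxidant genes called, 1, was 2 with all expressed genes and 2 with animal 20 as heat stress. It was 0 with animal 20 as control, with the block and in series 2, and 1 to 2 with an animal left out. Of the further oxidant defence genes, 29 in Takara became 14 in series 2, where 7.35% of all genes were called. They became 0 with animal 20 as control, and 25 to 32 with an animal left out. The 8 in Lexogen, all higher, became 14 with all expressed genes (12 higher and 2 lower, where all genes called went from 616 of 11108 to 1701 higher and 1572 lower of 21596). The 8 became 4 in series 1, where 3.49% of all genes were called, 1 with the block and 6 for the same paired animals without it. They became 0 in series 2 and with animal 20 as control, and 4 to 9 with an animal left out. With animal 20 as control the adjusted p of NFE2L2 was 0.0554 in Takara and 0.127 in Lexogen, and of all genes tested 0 of 12652 were called in Takara (3804 at an unadjusted p under 0.05) and 2 of 11222 in Lexogen, so that the 0 is not particular to these genes. In Takara the same 3 genes (NFE2L2, GPX1 and TXNRD1) were called for the paired animals with and without the block, and in Lexogen NFE2L2 was called without it only. Series and paired fits used fewer libraries, and the cause of the other shifts was not tested. Tests of differences between kits or series called 0 antioxidant genes in each setting run. No log2 fold change of an antioxidant gene called with all 26 libraries of a kit changed sign in the settings run. In Lexogen, NQO1, GCLM and HMOX1, at a few CPM, had the widest intervals of the 10 genes, and changes within these were not excluded.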
